A study of Mus musculus with 4 samples.

Results

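A group of 40 genes of blood vessels, the blood-brain barrier, the choroid plexus and the leptomeninges were followed in RNA from the brains of aged mice. They were taken from a list of gene symbols, and all 40 were found among the 32531 gene rows of the deposited count tables. The comparison is of nucleus accumbens, in the ventral striatum, with dorsal striatum. The accumbens group and the dorsal striatum group held 2 libraries each, dissected from animals over 20 months old of the animal line Drd1-TRAP CP73, written Drd1-EGFP/Rpl10a-CP73 in the sample titles. All 4 libraries carry the same transgene, in which the Drd1 promoter drives EGFP fused to the ribosomal protein Rpl10a, a tag made for purifying ribosomes of Drd1 neurons. The labels call every library an input sample of total RNA, although the extraction notes also cite a method for purifying tagged ribosomes. No group analysed here is without the transgene or young, and the labels name neither the sex nor the animal behind a library.

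Brain capillaries are lined by endothelial cells that tight junctions join into a barrier and that carry glucose, lipids and drugs across by dedicated transporters. Pericytes and smooth muscle cells wrap these vessels, and a basement membrane of collagen IV and laminin lies between them. The choroid plexus is a separate epithelium in the ventricles that makes cerebrospinal fluid and secretes transthyretin, and fibroblasts with fibrillar collagen lie in the leptomeninges and around large vessels.

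Of the 40 genes, 30 could be tested and 1 of these passed the test for a difference between the regions (3.33%, against 1.28% of all tested genes). Slc2a1, which encodes the glucose transporter GLUT1 of barrier endothelium and astrocytes, was higher in accumbens. The genes that define endothelial cells, mural cells and choroid plexus were at low levels in all 4 libraries, and 15 of the 30 tested genes differed by more than 2-fold between the 2 accumbens libraries (21.7% of all tested genes did). Whether the extraction, whose notes cite ribosome purification, has a part in the low vascular levels was not tested.

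Depth was 8606099 and 8478403 counts assigned to genes in accumbens and 8991788 and 11849134 in dorsal striatum. Levels are CPM, the counts divided by library size in units of 1e6 reads, after TMM scaling, which corrects library size for differences in composition, and 1 count was worth 0.0797 to 0.125 CPM. The log2 ratio is the fitted log2 fold change of accumbens over dorsal striatum, with its standard error (SE). The low-count filter left 14493 genes, 30 of the 40 among them. Of those 14493 genes, 186 had an adjusted p under 0.05, 144 higher in accumbens and 42 lower, and scaling by library size alone gave 72 and 172. Markers of the main cells were abundant: 10 genes of striatal projection neurons summed to 4543 and 3806 CPM in accumbens and 4817 and 4991 CPM in dorsal striatum, and 14 astrocyte genes to 3612 and 3135 against 3220 and 2281 CPM. In bulk tissue, fewer cells of a type and less RNA per cell cannot be told apart.

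**Figure D1:**
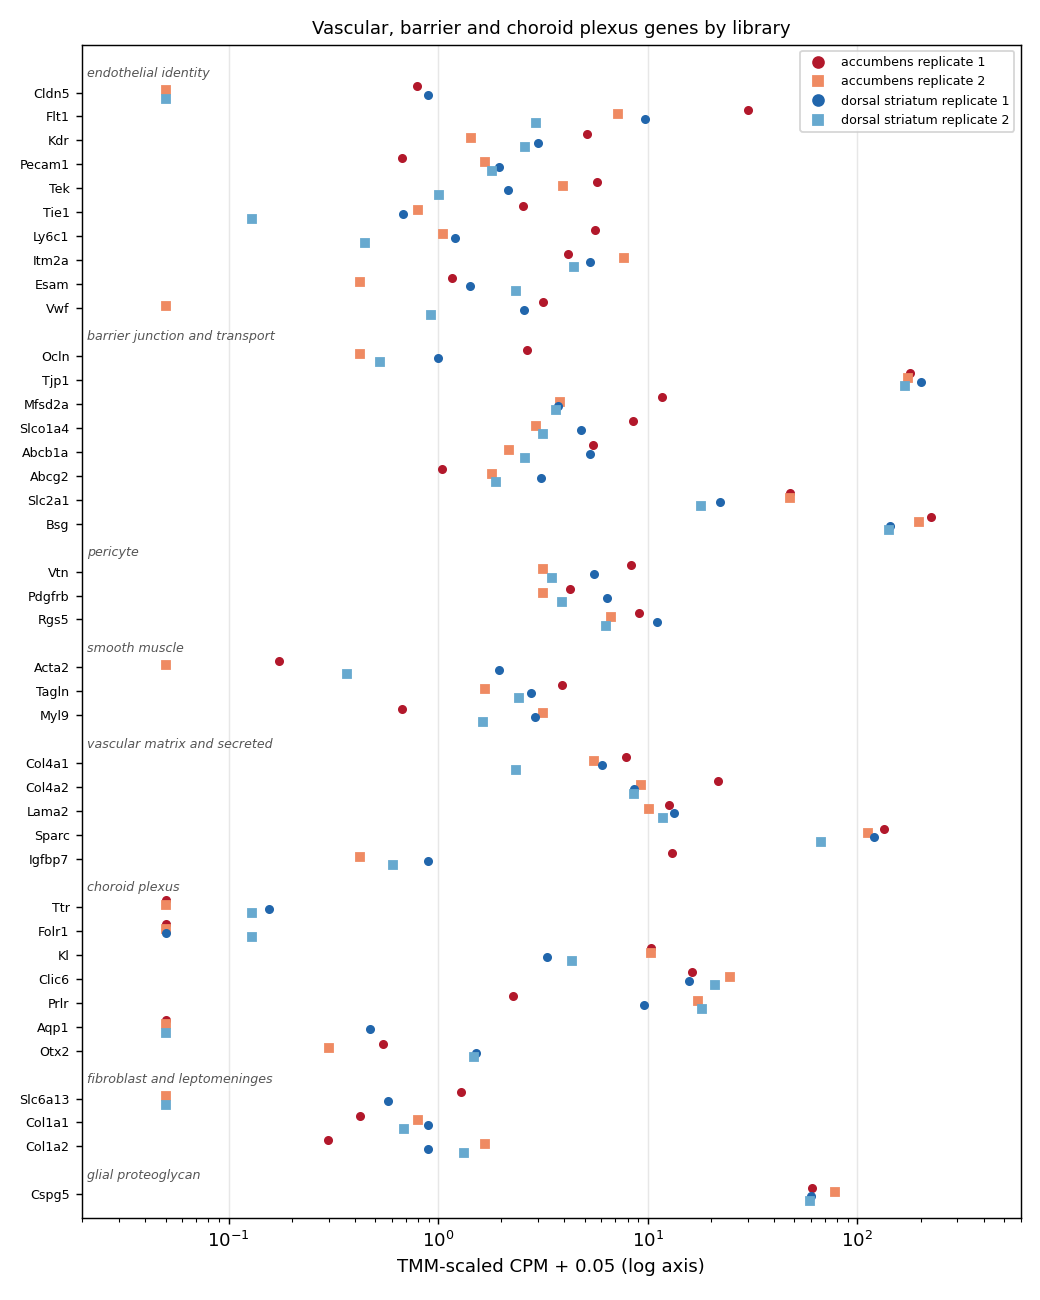
Level of each of the 40 genes in each library, grouped by role, as TMM-scaled CPM plus 0.05 on a log axis; points at the left end of a row near 0.05 are libraries with 0 counts. Most vascular genes lie under 15 CPM, while Bsg, Tjp1, Sparc and Cspg5 lie between 59.1 and 225 CPM.

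The 10 genes of endothelial identity summed to 58.5 and 23.8 CPM in accumbens and to 28.4 and 16.2 CPM in dorsal striatum. Cldn5, which encodes the main tight junction claudin of brain endothelium, had 6 and 0 counts in accumbens and 8 and 0 counts in dorsal striatum, and was too low to be tested. A count of 0 allows a level of up to 0.375 CPM in accumbens replicate 2 and 0.239 CPM in dorsal striatum replicate 2, for counting error alone. Vwf, the von Willebrand factor gene, had 25 and 0 counts against 24 and 11, and in accumbens the ratio of replicate 1 to replicate 2 had a lower 95% counting limit of 6.23. Both genes had no read in accumbens replicate 2, which had 8478403 gene counts against 8606099 in its partner.

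Of the endothelial receptors, Flt1, which encodes VEGF receptor 1, stood at 29.98 and 7.13 CPM in accumbens and 9.67 and 2.87 CPM in dorsal striatum. The regions overlapped, because accumbens replicate 2 lay below dorsal striatum replicate 1. Its log2 fold change was 1.58 (SE 0.73), with an edgeR adjusted p of 0.283. Within accumbens the ratio of replicate 1 to replicate 2 was 4.21 (95% counting interval 3.14 to 5.72), and within dorsal striatum it was 3.37 (2.27 to 5.10). Kdr, the gene of VEGF receptor 2 that carries most VEGF signal in endothelium, stood at 5.08 and 1.38 CPM against 2.94 and 2.55 CPM, and the log2 fold change was 0.23 (SE 0.76).

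Tek, which encodes the angiopoietin receptor TIE2, stood at 5.70 and 3.88 CPM in accumbens and 2.10 and 0.956 CPM in dorsal striatum. Both accumbens libraries were above both dorsal striatum libraries. The log2 ratio was 1.65 (SE 0.70) and missed the threshold (adjusted p in edgeR = 0.249). The gene of its partner receptor, Tie1, had 20 and 6 counts in accumbens and 6 and 1 counts in dorsal striatum and was not tested.

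Surface and adhesion genes of endothelium went in both directions. Ly6c1, a surface antigen gene of mouse brain endothelium, stood at 5.57 and 1.00 CPM against 1.16 and 0.398 CPM (log2 ratio of 2.09, SE 1.04), and its near-identical neighbour Ly6c2 makes its counts uncertain. Pecam1, which encodes the junction protein CD31, stood at 0.619 and 1.63 CPM in accumbens and 1.89 and 1.75 CPM in dorsal striatum (log2 ratio of −0.69, SE 0.85). For Esam, an adhesion molecule gene of endothelial junctions, the values were 1.11 and 0.375 CPM against 1.37 and 2.31 CPM (log2 ratio of −1.29, SE 0.92). Both genes were lower in each accumbens library than in each dorsal striatum library, and neither passed. Itm2a, a transmembrane protein gene found in brain endothelium, stood at 4.09 and 7.63 CPM against 5.25 and 4.38 CPM. Of the 8 tested members of endothelial identity, only Itm2a and Pecam1 were higher in accumbens replicate 2 than in accumbens replicate 1. Of 16 other tested endothelial genes, 12 were higher in accumbens replicate 1.

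Barrier genes divided into those of tight junctions and those of transporters. Tjp1, which encodes the scaffold ZO-1 present in many cell types, stood at 178 and 175 CPM in accumbens and 201 and 168 CPM in dorsal striatum, a log2 fold change of −0.06 (SE 0.14). Ocln, the occludin gene, had 21 and 3 counts against 9 and 6 and was not tested. The widely expressed scaffold was thus well counted and overlapped between regions, while Cldn5 and Ocln had at most 21 counts in a library.

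The glucose transporter gene Slc2a1 (chromosome 4, 119108711 to 119137983, plus strand, GRCm38) stood at 47.6 and 47.6 CPM in accumbens and 22.1 and 17.9 CPM in dorsal striatum. Its exons overlap those of Gm12868 on the opposite strand. The libraries did not overlap, and the 2 accumbens libraries differed by less than counting error, with a ratio of 0.999 (0.864 to 1.15). The mean was 47.6 ± 0.0442 CPM in accumbens, against 19.96 ± 2.98 CPM in dorsal striatum (SD over 2 libraries each), a fitted 2.39-fold difference. The log2 fold change was 1.26 (SE 0.22), with an edgeR adjusted p of 0.0431. Without dorsal striatum replicate 1 or 2, when 0.71% or 1.09% of all tested genes and no member passed, the log2 fold change was 1.39 or 1.10 and the edgeR adjusted p 0.0847 or 0.244, and with scaling by library size alone the adjusted p was 0.0519 and 1.68% of all genes passed.

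Astrocytes also use GLUT1, and 1 of 14 astrocyte genes passed in the same direction. It was Gja1, the gap junction gene of astrocytes and their vessel-facing endfeet, at 52.9 and 58.3 CPM in accumbens and 27.1 and 28.0 CPM in dorsal striatum (log2 ratio of 1.01, SE 0.19, adjusted p in edgeR = 0.0491). The median log2 fold change of the 14 astrocyte genes was 0.04, against 0.02 for all tested genes. The 8 tested members of endothelial identity had a median of 0.26 and a range of −1.29 to 2.09, and 16 other tested endothelial genes had a median of 0.98 with 14 positive. The part of either cell type in the Slc2a1 difference was not tested.

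The remaining transporters were much lower, and none passed. Mfsd2a, which encodes the lysolipid transporter that carries docosahexaenoic acid into the brain, stood at 11.6 and 3.75 CPM against 3.68 and 3.59 CPM (log2 ratio of 1.08, SE 0.61). The accumbens libraries were both above the dorsal striatum libraries, by little in the case of replicate 2. Slco1a4, an organic anion transporter gene, stood at 8.42 and 2.88 CPM against 4.73 and 3.11 CPM (log2 ratio of 0.53, SE 0.64). Abcb1a, the gene of the drug efflux pump P-glycoprotein, stood at 5.45 and 2.13 CPM against 5.25 and 2.55 CPM (log2 ratio of −0.04, SE 0.69). The second efflux pump gene, Abcg2, stood at 0.991 and 1.75 CPM against 3.05 and 1.83 CPM (log2 ratio of −0.82, SE 0.79). Abcb1a overlapped between regions, and the part of reads shared with its related neighbour Abcb1b in its counts was not tested. The Abcg2 libraries separated with accumbens lower.

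Bsg, which encodes basigin, a glycoprotein of barrier endothelium that also escorts lactate transporters to the membrane of other cells, was the most abundant of the 40 genes per transcript length. It stood at 225 and 198 CPM in accumbens and 143 and 141 CPM in dorsal striatum. Its regions did not overlap. The log2 fold change of 0.57 (SE 0.14) missed the threshold (adjusted p in edgeR = 0.0812), and DESeq2 gave an adjusted p of 0.00639, a test in which 11.2% of all genes with an adjusted p passed. With no filter on low counts, where 5.68% of all genes passed, Bsg, Flt1, Igfbp7 and Slc2a1 did, or 4 of the 40 members.

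**Figure D2:**
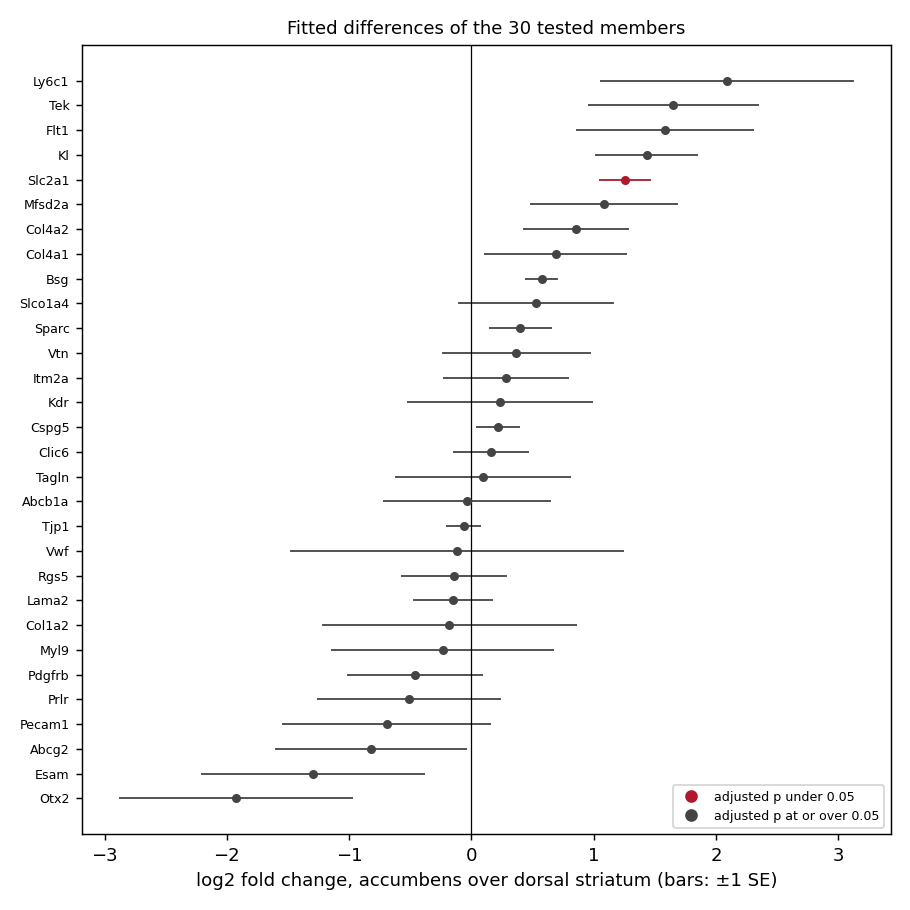
Fitted log2 fold change, accumbens over dorsal striatum, of the 30 tested genes with bars of 1 SE. Slc2a1 at 1.26 passed the test, and genes of larger fitted change such as Ly6c1, Tek and Flt1 have standard errors of 0.70 to 1.04.

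The bases just before the transcription start are shown for 4 genes: Slc2a1, which passed; Kl, whose regions also separated with little spread; and the endothelial receptor genes Flt1 and Tek. Each is 200 bases of RefSeq promoter sequence (GRCm38.p6) on the gene's strand, ending before the start of both the RefSeq and the GENCODE gene. Capitals mark GC boxes (GGGCGG or its reverse complement CCGCCC) and TATA boxes (TATAAA or TTTATA). Slc2a1 is at chr4:119108511-119108710, plus strand, Kl at chr5:150952407-150952606, plus strand, Flt1 at chr5:147726012-147726211, minus strand, and Tek at chr4:94739089-94739288, plus strand.
Slc2a1: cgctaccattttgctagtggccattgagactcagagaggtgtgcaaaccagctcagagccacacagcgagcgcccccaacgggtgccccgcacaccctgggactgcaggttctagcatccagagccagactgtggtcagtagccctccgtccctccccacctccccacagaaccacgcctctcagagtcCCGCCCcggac
Kl: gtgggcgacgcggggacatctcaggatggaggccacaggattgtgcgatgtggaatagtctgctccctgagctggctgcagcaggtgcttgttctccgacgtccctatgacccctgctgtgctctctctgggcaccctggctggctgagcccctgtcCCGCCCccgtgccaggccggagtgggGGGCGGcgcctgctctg
Flt1: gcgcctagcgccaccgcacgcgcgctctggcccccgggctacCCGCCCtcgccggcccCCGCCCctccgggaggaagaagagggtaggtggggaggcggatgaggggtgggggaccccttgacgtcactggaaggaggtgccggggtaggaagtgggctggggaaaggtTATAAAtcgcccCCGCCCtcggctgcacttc
Tek: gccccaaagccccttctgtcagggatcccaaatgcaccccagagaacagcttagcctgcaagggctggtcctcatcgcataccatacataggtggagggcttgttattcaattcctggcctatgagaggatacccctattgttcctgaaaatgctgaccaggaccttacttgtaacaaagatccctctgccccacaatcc
The GC content was 63.5% for Slc2a1, 67.5% for Kl, 71.5% for Flt1 and 51.5% for Tek. Kl held 2 GC boxes, Slc2a1 held 1, Flt1 held 3 and a TATA box, and Tek held no match. In windows of 200 bases before the RefSeq start, a GC box was present in 31% of 32851 promoters and in 14 of the 29 members matched by symbol (48.3%), and a TATA box in 9.96% and 4 of 29 (13.8%). A high-affinity ETS core (CCGGAA or TTCCGG), the letters bound by factors known from endothelial genes, was in 10.7% of promoters and in 1 of the 29, Kdr. These matches describe the letters alone.

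The 3 pericyte genes among the members showed no separation between the regions. Rgs5, a regulator of G protein signalling enriched in pericytes, stood at 9.04 and 6.63 CPM in accumbens and 11.03 and 6.30 CPM in dorsal striatum (log2 ratio of −0.14, SE 0.43). Vtn, the vitronectin gene expressed by brain pericytes, stood at 8.30 and 3.13 CPM against 5.46 and 3.43 CPM (log2 ratio of 0.37, SE 0.61). Pdgfrb, which encodes the receptor that recruits pericytes to vessels, stood at 4.21 and 3.13 CPM against 6.30 and 3.83 CPM (log2 ratio of −0.46, SE 0.56). In all 3 genes replicate 1 exceeded replicate 2 in both regions.

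Contractile genes of smooth muscle were lower still. Tagln, the transgelin gene, stood at 3.84 and 1.63 CPM in accumbens and 2.73 and 2.39 CPM in dorsal striatum, and Myl9, a myosin light chain gene, at 0.619 and 3.13 CPM against 2.84 and 1.59 CPM. Neither separated the regions, with log2 ratios of 0.09 (SE 0.72, below 0 with library size alone) and −0.24 (SE 0.91). Acta2, which encodes smooth muscle actin, had 1 and 0 counts in accumbens and 18 and 4 counts in dorsal striatum, and was not tested. Its libraries lay apart by region, on 23 reads in all.

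Of the matrix genes, Sparc, which encodes a collagen-binding protein of endothelium and glia, stood at 134 and 113 CPM in accumbens and 120 and 66.9 CPM in dorsal striatum (log2 ratio of 0.40, SE 0.26). Col4a2, a collagen IV chain of the vascular basement membrane, stood at 21.6 and 9.25 CPM against 8.51 and 8.53 CPM (log2 ratio of 0.85, SE 0.43, adjusted p in edgeR = 0.331). Its libraries separated, but accumbens replicate 2 lay just above the dorsal striatum pair. The partner chain Col4a1, which shares a promoter region with Col4a2 on the opposite strand, stood at 7.80 and 5.50 CPM against 5.99 and 2.31 CPM and overlapped (log2 ratio of 0.69, SE 0.59). Lama2, a laminin chain of pericytes and astrocytes, ranged from 10.1 to 13.3 CPM over all libraries (log2 ratio of −0.15, SE 0.32).

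Igfbp7, which encodes a growth factor binding protein secreted by vessels, had 105 and 3 counts in accumbens and 8 and 7 counts in dorsal striatum. Most of its reads were in a single library. In CPM, replicate 1 was 34.7-fold above replicate 2 within accumbens (counting interval 11.5 to 171), and the gene failed the filter. Its exons overlap those of Polr2b on the opposite strand. Polr2b stood at 95.8 and 89.0 CPM in accumbens and 74.2 and 76.2 CPM in dorsal striatum. The part of reads shared with Polr2b in the Igfbp7 counts was not tested.

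Choroid plexus genes fell apart into absent and present ones. Ttr, the transthyretin gene that dominates choroid plexus RNA, had 0 and 0 counts in accumbens and 1 and 1 counts in dorsal striatum. Folr1, the folate receptor gene of that epithelium, had 0 and 0 against 0 and 1 counts, and the water channel gene Aqp1 had 0 and 0 against 4 and 0. None of these 3 defining genes exceeded 4 counts in any library.

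Kl, which encodes klotho, a coreceptor for FGF23, stood at 10.3 and 10.3 CPM in accumbens and 3.26 and 4.30 CPM in dorsal striatum. The libraries separated, and the fitted fold was 2.70 (log2 ratio of 1.43, SE 0.42, adjusted p in edgeR = 0.126). Clic6, a chloride channel protein gene, stood at 16.2 and 24.6 CPM against 15.7 and 20.9 CPM (log2 ratio of 0.16, SE 0.31, below 0 with library size alone). Prlr, the prolactin receptor gene, stood at 2.23 and 17.3 CPM against 9.56 and 18.1 CPM (log2 ratio of −0.51, SE 0.75). The low accumbens library for Prlr was replicate 1, the library that was highest for endothelial genes.

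Otx2, a transcription factor gene of choroid plexus epithelium, was lower in both accumbens libraries. It stood at 0.495 and 0.250 CPM in accumbens and 1.47 and 1.43 CPM in dorsal striatum, which is 4 and 2 counts against 14 and 18 (log2 ratio of −1.92, SE 0.96, adjusted p in edgeR = 0.320). Ependymal cells line the same ventricles, and their 12 cilia genes summed to 13.5 and 15.6 CPM in accumbens and 27.1 and 33.2 CPM in dorsal striatum. Among them Foxj1, the master regulator of motile cilia, stood at 1.49 and 2.38 CPM against 7.57 and 6.69 CPM (log2 ratio of −1.88, SE 0.55). The ependymal gene Ccdc153 had 0 and 0 counts in accumbens and 26 and 44 in dorsal striatum, and Ak7 had 6 and 16 against 63 and 86. The other tested genes overlapped: Dnah11 had 8 and 16 counts against 19 and 38, Pifo 0 and 30 against 7 and 15, and Rsph1 78 and 37 against 54 and 93. Of the 6 tested, 4 were negative and 2 positive, and none passed, and the part of ventricular tissue in the Otx2 values was not tested.

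Fibroblast genes were near the limit of detection. Col1a2 stood at 0.248 and 1.63 CPM against 0.841 and 1.28 CPM, and its partner collagen chain Col1a1 had 3 and 6 counts in accumbens and 8 and 8 in dorsal striatum. Slc6a13, which encodes the GABA transporter GAT2 of leptomeninges and vessels, had 10 and 0 counts against 5 and 0. In both regions its reads were thus confined to replicate 1. Cspg5, a proteoglycan gene of glia and neurons that shares the list but is not a vessel gene, stood at 60.8 and 78.3 CPM against 60.3 and 59.1 CPM (log2 ratio of 0.22, SE 0.18).

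Per kilobase of the longest protein-coding transcript, averaged over the 4 libraries, Bsg had 116 CPM per kb, Sparc 47.1, Tjp1 25.6, Slc2a1 10.4, Cspg5 8.21 and Clic6 5.15 CPM per kb. All other members were at or under 3.08 CPM per kb. Cldn5 had 0.280 CPM per kb, Pecam1 0.428 and Tek 0.679, and 34.8%, 37.5% and 40.7% of 19780 protein-coding genes were lower. For Ttr the level was 0.0389 CPM per kb. The top places went to genes that several cell types express.

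Accumbens replicate 1 was often the highest library for endothelial, barrier and matrix genes. It was the highest of the 4 libraries for 15 of the 30 tested members (50%), against 32% of all tested genes. Pericyte genes summed to 21.6 and 12.9 CPM in accumbens and 22.8 and 13.5 CPM in dorsal striatum, and smooth muscle genes to 4.58 and 4.75 against 7.46 and 4.30 CPM, so that replicate 1 of accumbens was not the highest there. Between the 2 accumbens libraries 15 of 30 members differed by more than 2-fold in CPM, against 21.7% of all tested genes, and between the dorsal striatum libraries 6 did, against 4.87%. With 0.5 CPM added to each value these were 13 members and 18.2%, and 3 members and 2.79%. Many of these members rest on few counts. The same library was also highest for 7 of 10 tested genes of cortical glutamatergic neurons, whose 11 genes summed to 532 and 283 CPM in accumbens and 176 and 78.5 CPM in dorsal striatum. It was highest for 6 of 11 microglial genes too, which summed to 155 and 116 CPM against 111 and 71.4 CPM. The part of neighbouring tissue or of other cells in the vessel genes was not tested.

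**Figure D3:**
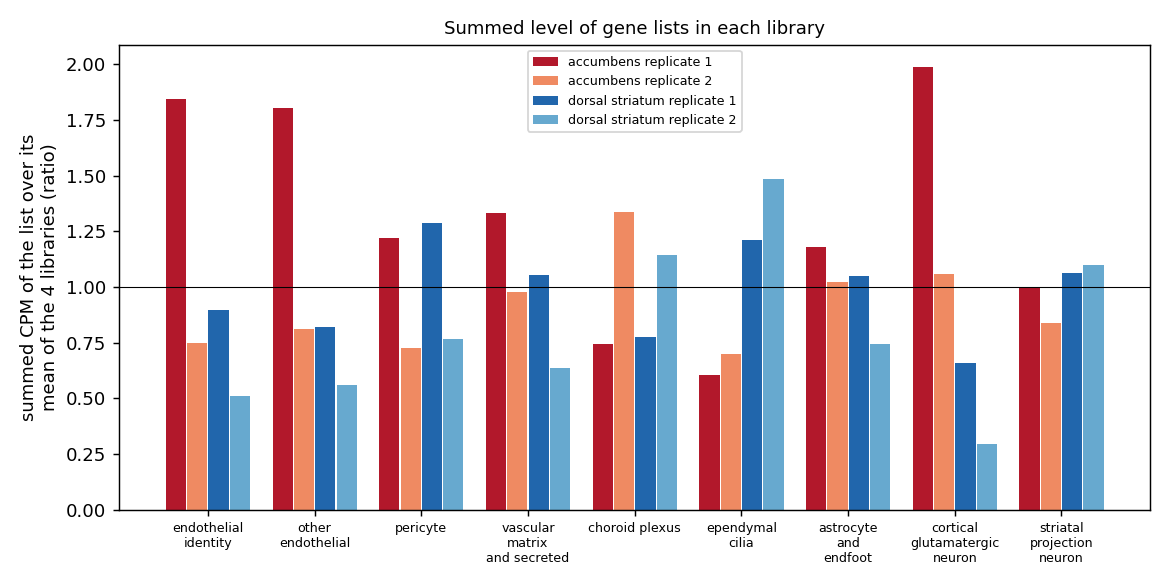
Summed CPM of each gene list in each library, divided by the mean of the 4 libraries. Accumbens replicate 1 has the tallest bar for both endothelial lists and for cortical neurons, the ependymal bars are taller in dorsal striatum, and striatal neuron bars lie near 1.

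Leaving out libraries showed which differences rested on replicate 1. Without it, the edgeR fit gave log2 fold changes of 0.22 for Flt1, 0.41 for Ly6c1, 0.04 for Mfsd2a and 0.12 for Col4a2, and the summed level of the endothelial genes was 1.07 times that of dorsal striatum in place of 1.85 times. Without accumbens replicate 2 the same genes had 2.30, 2.88, 1.68 and 1.34, and 12 of 35 tested members passed (34.3%), when 28.9% of all tested genes did. Of these, 11 were higher in accumbens and Prlr was lower (log2 ratio of −2.64). In both fits the lone accumbens library is assumed to vary like the dorsal striatum pair. Slc2a1 at 1.26 and 1.25 and Kl at 1.42 and 1.43 were little moved by either accumbens library. Without accumbens replicate 1 the log2 fold change was 0.47 for Bsg and −7.07 for Vwf. The Vwf value rested on the 0 counts of accumbens replicate 2. For Vwf it was −0.12 with all libraries and 0.90 without accumbens replicate 2.

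**Figure D4:**
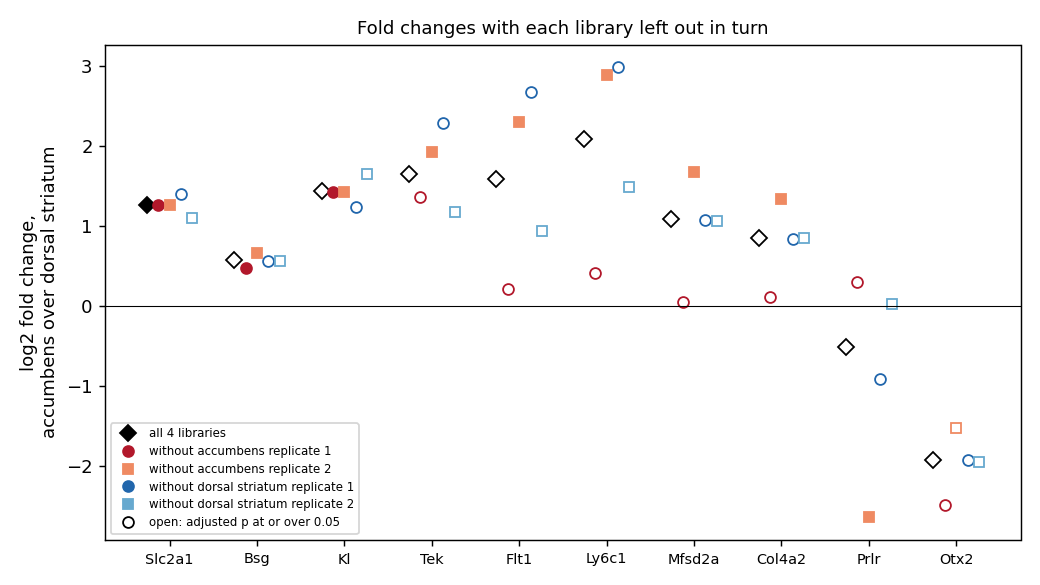
Log2 fold change, accumbens over dorsal striatum, of 10 members with all libraries and with each left out, where filled symbols have an edgeR adjusted p under 0.05. Flt1, Ly6c1, Mfsd2a and Col4a2 drop to between 0.04 and 0.41 without accumbens replicate 1, while Slc2a1 stays between 1.10 and 1.39 in all 4 cases.

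By count, the 30 tested members had a median log2 fold change of 0.19, against 0.02 for all tested genes, and 17 were positive. Unadjusted p was under 0.05 for 4 of the 30, Slc2a1, Bsg, Kl and Tek, against 19.2% of all tested genes. Libraries of the 2 regions did not overlap for 11 members (36.7%), against 51.2% of all tested genes. By role, the median was 0.26 for endothelial identity, 0.53 for barrier junction and transport, 0.55 for matrix, −0.14 for pericyte, −0.07 for smooth muscle and −0.18 for choroid plexus genes, and the single tested fibroblast gene was at −0.18.

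Further genes of the same cells, outside the 40, were read alongside. Of 16 tested genes of endothelium none passed, although 14 were positive, the median was 0.98 and 11 were highest in accumbens replicate 1. The most abundant were Vcam1, an adhesion molecule gene, at 32.1 and 11.9 CPM in accumbens and 18.5 and 16.6 CPM in dorsal striatum, and Ptprb, the gene of the endothelial phosphatase VE-PTP, at 23.2 and 13.4 CPM against 11.98 and 5.90 CPM. Cdh5, the VE-cadherin gene, had 37 and 7 counts against 7 and 5. The 26 endothelial genes summed to 148 and 66.6 CPM in accumbens and 67.2 and 45.8 CPM in dorsal striatum.

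In the list of other barrier genes 1 of 21 passed. It was Cdh2, the N-cadherin gene shared by neurons, glia and the contact of endothelium with pericytes, at 127 and 105 CPM in accumbens and 56.7 and 60.0 CPM in dorsal striatum (log2 ratio of 0.99, SE 0.16, adjusted p in edgeR = 0.0431). The list had a median of 0.29 with 18 positive members. Among 21 tested ligands and receptors of vessel growth none passed and the median was 0.19, with the Wnt coreceptor gene Lrp6 at 163 and 139 against 150 and 134 CPM and the hypoxia factor gene Epas1 at 111 and 97.9 against 101 and 81.3 CPM.

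None of 12 tested pericyte and smooth muscle genes passed and their median was −0.46, with the proteoglycan gene Cspg4, also a marker of oligodendrocyte precursors, at 19.2 and 21.5 CPM in accumbens and 11.98 and 14.03 CPM in dorsal striatum. The transcription factor gene Zic1 stood at 13.01 and 19.8 against 17.8 and 46.1 CPM. Of the 12 tested genes of that list, 8 were negative and 4 positive. The regions did not overlap for 8 of the 12, 5 lower and 3 higher in accumbens, against 51.2% of all tested genes. Of 15 basement membrane genes none passed and the median was 0.31, with the dystroglycan gene Dag1 at 152 and 153 against 117 and 129 CPM and the agrin gene Agrn at 73.5 and 61.8 against 69.6 and 65.3 CPM. Fibroblast and leptomeningeal genes gave no call among 9 with a median of 0.44, with the collagen VI gene Col6a1 at 71.5 and 45.4 against 41.8 and 32.9 CPM and the connexin gene Gjb6 at 20.2 and 9.75 against 21.1 and 8.77 CPM.

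Of 22 other choroid plexus genes 5 could be tested, none passed and the median was −0.51. The 2 most abundant were Enpp2, which encodes autotaxin and is also expressed by oligodendrocytes, at 152 and 170 CPM in accumbens and 194 and 134 CPM in dorsal striatum, and the carbonic anhydrase gene Car12 at 136 and 109 against 73.7 and 70.1 CPM. Some members were near 0: the bicarbonate transporter gene Slc4a5 had 1 and 0 counts against 1 and 0, and Kcne2 had 1 and 0 against 3 and 1. Others had more reads in dorsal striatum. Tmem72 had 0 and 0 counts against 2 and 14. The potassium channel gene Kcnj13 had 0 and 5 counts against 24 and 25 (log2 ratio of −2.80, SE 1.20, adjusted p in edgeR = 0.255). The claudin gene Cldn1 had 0 and 9 against 16 and 29 (log2 ratio of −1.81, SE 1.24). Slc13a4, which was not tested, went the other way, with 12 and 8 counts against 1 and 6. Of the 5 tested genes, 4 were negative and 1 was positive. At 0 counts in each library were 12 and 13 of the 22 genes in accumbens and 6 and 9 in dorsal striatum.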

How the data were processed

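The data are RNA sequencing of 2 accumbens and 2 dorsal striatum input libraries, grouped by the tissue in the labels. The authors deposited raw counts per gene symbol, made with STAR 2.0.0e, HTSeq and the mm10 build, per the submitters' processing notes. Neither annotation nor strand setting is given in the sources used here. Reads of the 9 members whose exons overlap another gene may therefore be shared or lost. Rows that name no gene were left out of library sizes and tests (27.5% to 35.4% of reads in no feature, 6.06% to 9.46% ambiguous, 6.98% to 10.2% with several alignments).

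Counts were scaled by TMM, filtered with filterByExpr and fitted in edgeR 4.0.16 (quasi-likelihood F-test, R 4.3.3), with region as the single term. Tests were two-sided, with Benjamini-Hochberg adjustment over 14493 genes and a threshold of 0.05. Each adjusted p of a single gene is from this test unless another tool is named, and each SE is |log2 fold change| divided by the root of F. No label ties the libraries to different animals. The p-values thus measure library-to-library spread, possibly technical. An exact permutation of 2 against 2 libraries cannot give a p under 0.333, and none was used. Counting intervals are exact (Clopper-Pearson, 95%), and these and the floor of 3 counts cover counting error only. Counts of genes over 2-fold apart between replicates were made on CPM, and again with 0.5 CPM added.

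Transcript lengths and gene positions came from GENCODE M21, on GRCm38, the assembly of mm10, and promoters from RefSeq (29 of 40 members matched by symbol). The members, lists, motifs and tests were chosen with earlier results of these data known. Values per library were given for members past the threshold, for those that separated by region with a fold of at least 1.5, for the 2 most abundant of each role and then for the rest. Of each other list, genes past the threshold or the 2 most abundant were named, apart from some that are not reported here. Polr2b, Foxj1, Ccdc153, Ak7, Dnah11 and Pifo were added after their values were seen, as markers or an overlapping gene. So were Kcnj13, Cldn1, Cdh5, Slc4a5, Kcne2, Tmem72 and Slc13a4. Alternatives covered scaling, filter, tool (DESeq2 1.42.0, limma-voom 3.58.1), robust fit, a block and left-out libraries. On counts simulated for this comparison over 14178 genes, the test recovered 8% of 100 genes changed 2-fold and 94% of 100 changed 4-fold. These rates were not split by count level, so they cannot give the recovery for members with few counts. Ly6c1, at 5 to 45 counts per library and a fitted 4.25-fold, had an edgeR adjusted p of 0.319.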

Additional observations from a re-analysis of the deposited data

How the results depend on the processing

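The count of members past the threshold (1 of 30) stayed at 1 with DESeq2 size factors, upper-quartile factors, a minimum of 10 counts in every library, limma-voom, the robust fit, the 50 most abundant genes left out and library sizes without the listed genes. It was 0 with library size alone, under which the median over all genes was −0.15 (log2), against 0.02 with TMM. It was 4 with no filter on low counts (Bsg, Flt1, Igfbp7 and Slc2a1) and 2 with DESeq2 (Bsg and Slc2a1), where 7 members had an adjusted p. Leaving out a library gave 0 to 12. The count over all genes, 186, was 1203 without the filter, 473 with at least 10 counts in every library, 933 with DESeq2, 431 with limma-voom and 109 to 4464 with a library left out. The members' median log2 fold change, 0.19, lay between 0.02 and 0.51 over all alternatives. Directions of single members changed under library size alone for Clic6 and Tagln, under limma-voom and the replicate block for Kdr and Tagln, and for 3 to 7 members when a library was left out; none was past the threshold with all libraries. The cause of these shifts was not tested.

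The replicate numbers are shared by the regions in the labels. Same-numbered libraries deviated together with a correlation of 0.03 over 14493 genes, and the numbers were not taken as pairs. That correlation cannot show whether same-numbered libraries share an animal or a batch. Flt1, at 4.21-fold in accumbens and 3.37-fold in dorsal striatum, and the pericyte members were higher in replicate 1 of both regions. So were Cldn5, Kdr, Tek, Tie1, Ly6c1 and Vwf of endothelial identity, with Tek at 1.47-fold and 2.20-fold and Ly6c1 at 5.57-fold and 2.90-fold. The rest of that group, Pecam1, Itm2a and Esam, differed in direction between the regions. Slco1a4, Abcb1a, Col4a1 and Sparc were among other members higher in replicate 1 of both regions. Clic6, Prlr and Col1a2 were higher in replicate 2 of both regions. A replicate block gave 843 genes and 3 members past the threshold (Bsg, Flt1 and Slc2a1). The 10 members below the low-count filter had 0 to 105 counts per library and no test with the filter.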

Other observations

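Blood and perivascular cells of the same vessels were also read. The erythroid genes were low: Hbb-bs, a beta globin gene, had 18 and 13 counts in accumbens and 18 and 59 counts in dorsal striatum, and Alas2, the erythroid heme synthesis gene, stood at 4.46 and 7.50 against 7.88 and 5.82 CPM. None of 3 tested genes of that list passed. Of 8 genes of perivascular macrophages 2 were tested and neither passed. Cd163, a haemoglobin scavenger receptor gene, stood at 14.6 and 16.9 CPM in accumbens and 16.9 and 14.3 CPM in dorsal striatum, and Stab1, a scavenger receptor gene, at 0.495 and 3.88 against 2.10 and 0.797 CPM.

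Microglia had no gene past the threshold among 11, with a median log2 fold change of 0.70, and Csf1r, the receptor gene on which these cells depend, stood at 33.7 and 33.1 against 24.2 and 21.1 CPM, with the complement gene C1qb at 21.3 and 12.3 against 19.4 and 11.6 CPM. Oligodendrocyte genes had none among 10 with a median of 0.17, with the myelin gene Mbp at 754 and 698 against 549 and 419 CPM. Of the genes of cortical neurons, Cck passed (log2 fold change 3.70), and of those of striatal projection neurons Rgs9 passed (−1.13).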
